A study of Mus musculus with 2 samples.

Results

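Basement membrane genes were followed across the cells of digested mouse knee joints: 30 genes, taken by symbol from the 32285 genes of the count matrix. They were the 6 collagen IV chains, 10 laminin chains, 2 nidogens, the heparan sulfate proteoglycans Hspg2 and Agrn, the collagens XV, XVIII, VII and VIII, nephronectin with the Fraser complex genes Fras1, Frem1 and Frem2, and the crosslinking enzyme Pxdn. All 30 were found. The joints came from hindlimbs of mice of both sexes at postnatal day 7, either wild type or carrying a Col12a1 knockout, so lacking collagen XII, with skin and paws removed. Tissue was digested for 6 hours in collagenase II at 4 mg/mL and sequenced with the 10x Genomics 3′ v3 chemistry. The labels name neither the strain, the kind of knockout allele nor the number of animals per library. The labels describe 3 libraries per genotype from 2 experiments, merged into 1 matrix whose barcodes end in 1 or 2. Neither barcode set is tied to a genotype by the labels, and none was assigned from Col12a1 counts or from order, so wild type and knockout were not compared. Each level below describes the mixture. The levels of barcode sets 1 and 2 are given beside most class levels of members, but not for clusters within a named class or for related genes. Nothing says that a set is a biological replicate, and cells are not replicates, so there are no p-values.

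Basement membranes are thin sheets of matrix under epithelium and endothelium and around muscle fibres, fat cells and Schwann cells. Laminins, each made of an alpha, a beta and a gamma chain, form a network on the cell surface, and collagen IV forms another beneath it. Nidogens and perlecan link them. Which chains are present differs between tissues, with laminin alpha 2 (Lama2) known from muscle and nerve and alpha 4 and alpha 5 (Lama4, Lama5) known from blood vessels. The genes may be read by the cell that rests on the membrane or by a neighbour such as a fibroblast, so the level per cell type and the share each type supplies are separate questions.

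Cells with at least 500 genes, at least 1000 unique molecular identifiers (UMIs, counted transcripts) and at most 10% mitochondrial UMIs were kept. These were 15171 of 24203 barcodes, 7158 in set 1 with a median of 10960.5 UMIs and 8013 in set 2 with a median of 9623 UMIs. Among kept cells 14 barcode sequences occurred in both sets. Clustering without the members, related lists and other collagens, laminins and integrins gave 32 clusters. Markers named 10 tissue classes and 7 blood classes, called "-like" because the names were rebuilt here. Tissue cells were 8932 in all: 3814 fibroblast-like, 1021 muscle progenitor-like, 878 chondrocyte-like, 810 tenocyte-like or ligament fibroblast-like (tenocyte-like from here on), 386 skeletal myofibre-like, 361 osteoblast-like, 231 endothelial-like, 156 synovial lining fibroblast-like (synovial lining-like), 100 pericyte-like or smooth muscle-like (pericyte-like) and 83 Schwann-like cells. Of tissue clusters 3 stayed unnamed: cluster 13 (504 cells, led by Msmp, Prg4 and Cytl1), cluster 17 (340 cells, led by Myog and Actc1) and cluster 21 (248 cells, led by S100a4 and Anxa8). No epithelial class was found. Of 6 epithelial markers, 1 to 5 had a UMI in each tissue class or cluster, and their summed level, in CPM (on which scale 10000 CPM is 1% of all UMIs of a class), ran from 7.63 CPM in cluster 21 to 96.3 CPM in cluster 17. Among named classes chondrocyte-like cells were highest, at 50.3 CPM. Krt5 and Krt14 had no UMI in 9 and 8 of the 10 named tissue classes. The doublet caller marked only 3 cells, so doublets were in effect not removed.

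Members held 460560 UMIs in kept cells, 96.6% of them in tissue classes and clusters, where they made up 0.285% of all UMIs. Of the 30 members 29 had at least 100 UMIs, and Lama1, a laminin alpha chain of early embryos, had 70. Levels are in CPM, with 95% Poisson intervals that cover counting error only. Of the 29 members 28 had their highest level in a tissue class or cluster. By highest level, 9 members led in Schwann-like cells, 6 in endothelial-like and 6 in pericyte-like cells. These classes are small, and a few UMIs can give the highest level there, as for Frem2 (4 UMIs) and Col4a6 (6 UMIs) in Schwann-like cells. How often all genes are highest in each class was not counted. For 11 of the 29 the interval overlapped that of the next class, and 19 had the same highest class in both barcode sets. Supply was another matter. For 22 members the class with the most UMIs was not the class with the highest level. The fibroblast-like class had the most UMIs for 20 of the 29 members. How often it does so over all genes was not counted. That class held 25.1% of kept cells (24.5 to 25.8) and 68708685 of the 215888825 UMIs of all genes in kept cells. Such shares depend on how many cells of each type the digestion released, which was not tested.

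**Figure D1:**
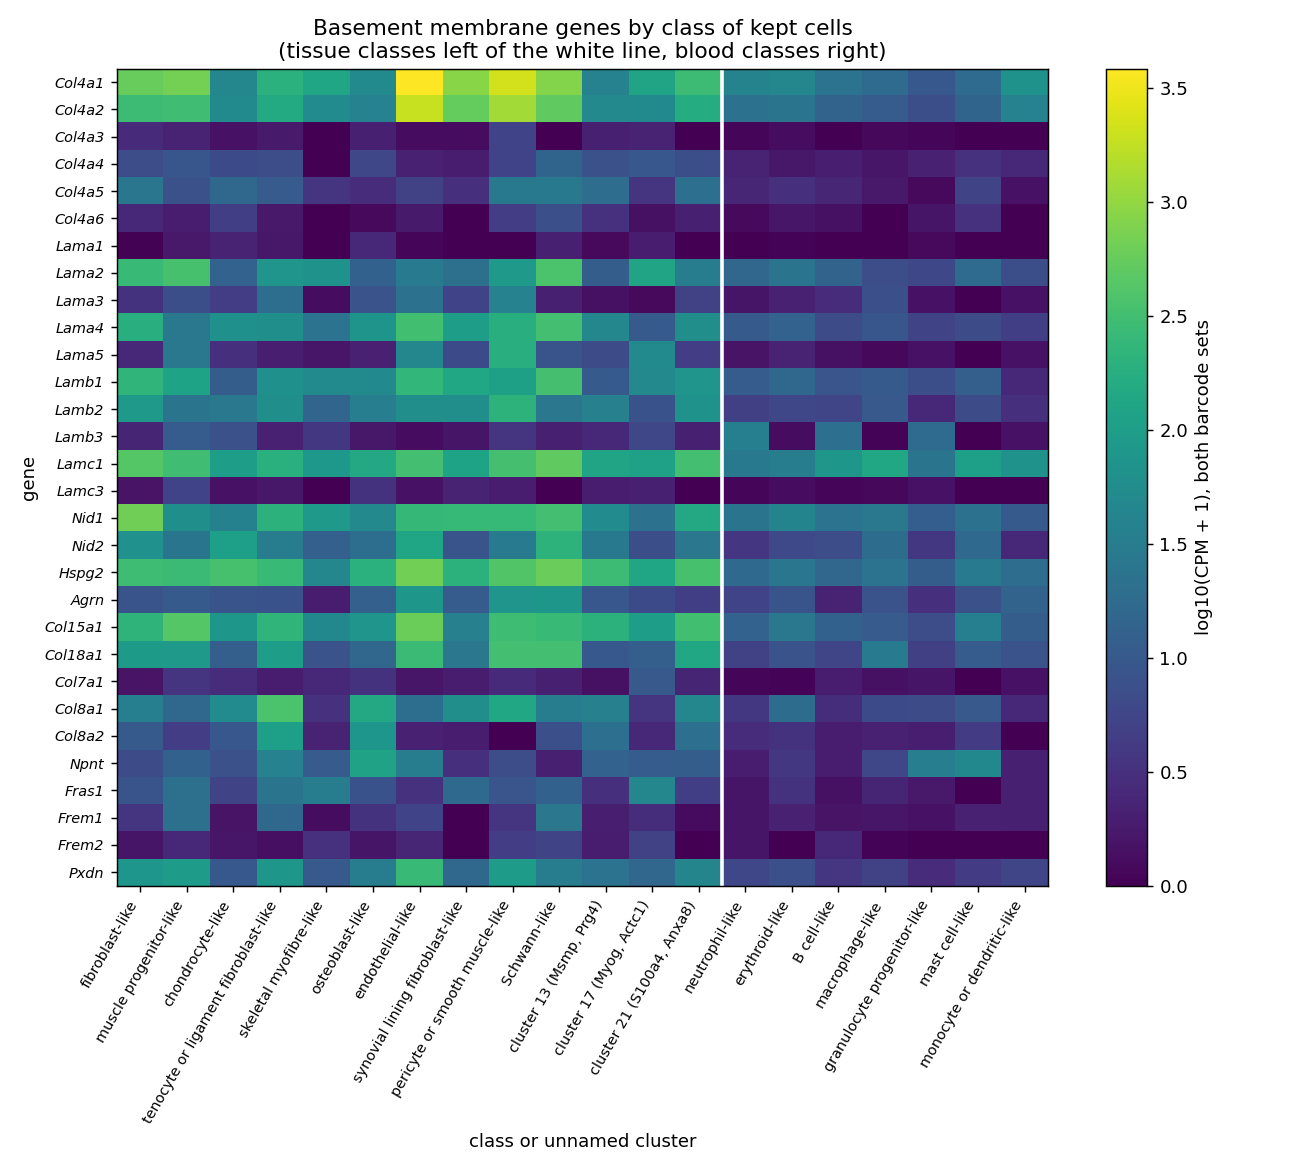
Level of each of the 30 genes (rows) in the 13 tissue classes and clusters and the 7 blood classes (columns), as log10(CPM + 1) over both barcode sets. Col4a1 is brightest in endothelial-like cells (3852 CPM), Nid1 in fibroblast-like cells (644 CPM), and Lamb3 is brighter in neutrophil-like cells (34.6 CPM) than in any tissue column.

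Cells of the B cell-like, neutrophil-like and erythroid-like classes, 4838 in all with a median of 5350.5 UMIs, served as background. Free RNA can give UMIs in cells that do not make a transcript, and so can doublets, which were in effect not removed. For some members these UMIs lay in few cells, with 1454 of Col4a1 in 4.44% of cells, 1077 of Nid1 in 3.27% and 647 of Lama2 in 2.71%. Their source was not tested, so the pool is a comparison level and not a measured floor of free RNA. Of the 29 members with at least 100 UMIs, 28 were above these 3 blood classes in at least 1 tissue class or cluster, against 79.7% of the 16899 genes tested the same way. The median member was above them in 11 of 13 tissue classes and clusters, and the median gene in 5. The exception was Lamb3. Background was low for most members, at 38.1 CPM for Col4a1, 16.9 CPM for Lama2 and 0.733 CPM for Lama5.

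Each tissue class was compared with all other tissue classes and clusters pooled. A call needed 100 UMIs over both sides, a 2-fold difference (a ratio of 2 or more, or of 0.5 or less) whose 95% interval left out 1, and the same direction in each barcode set. The calls were made for 15675 genes. Members were called higher most often, for their number, in endothelial-like cells, 11 of 29 against 13.9% of all genes, with 8 lower against 19%. In Schwann-like cells 10 were higher (all genes 15.6%) and 5 lower (10.2%), and in pericyte-like cells 8 were higher (10.2%) and 2 lower (11.2%). These 3 classes line or wrap vessels and nerves. In fibroblast-like cells 8 were higher (7.06%) and 9 lower (17.7%), in muscle progenitor-like cells 7 higher (13.3%) and 7 lower (17.8%), and in tenocyte-like cells 6 higher (4.84%) and 7 lower (14.6%). Counts in 1 class depended on how the others were weighted: with equal weight for each of the other tissue classes 4 members were higher in fibroblast-like and 4 in muscle progenitor-like cells. In cartilage and bone the calls were mostly downward. Chondrocyte-like cells had 3 members higher (7.24%) and 18 lower (26.8%), and osteoblast-like cells 4 higher (5.37%) and 15 lower (15.1%). Skeletal myofibre-like cells had 1 higher (8.41%) and 23 lower, where 49.1% of all genes were also lower, and their median depth was 3511.5 UMIs. Synovial lining-like cells had 0 higher (7.72%) and 13 lower (19.1%). Cluster 13 had 0 higher (5.77%) and 15 lower (22%), cluster 17 had 4 higher (10.4%) and 18 lower (28.9%), and cluster 21 had 0 higher (2.46%) and 11 lower (16.9%). Leaving out a barcode set moved some counts. Without set 2, Schwann-like cells had 3 members lower, tenocyte-like cells 2, pericyte-like cells 4, and synovial lining-like cells 1 higher, Col4a2 at 2.18-fold. Without set 1, pericyte-like cells had 1 lower and skeletal myofibre-like cells 0 higher. The shares of all genes called with equal weights or without a set were not counted, so these counts have no background beside them. The median log2 ratio of the 29 members was 0.15 in endothelial-like cells (all genes 0.01), -0.02 in fibroblast-like cells (-0.21), -1.35 in chondrocyte-like cells (-0.38) and -1.11 in osteoblast-like cells (-0.09). In Schwann-like cells it was 0.63, or 0.77 with the 2 members at 0 set to 3 counts (all genes 0.15), and in pericyte-like cells 0.48 (all genes -0.07).

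**Figure D2:**
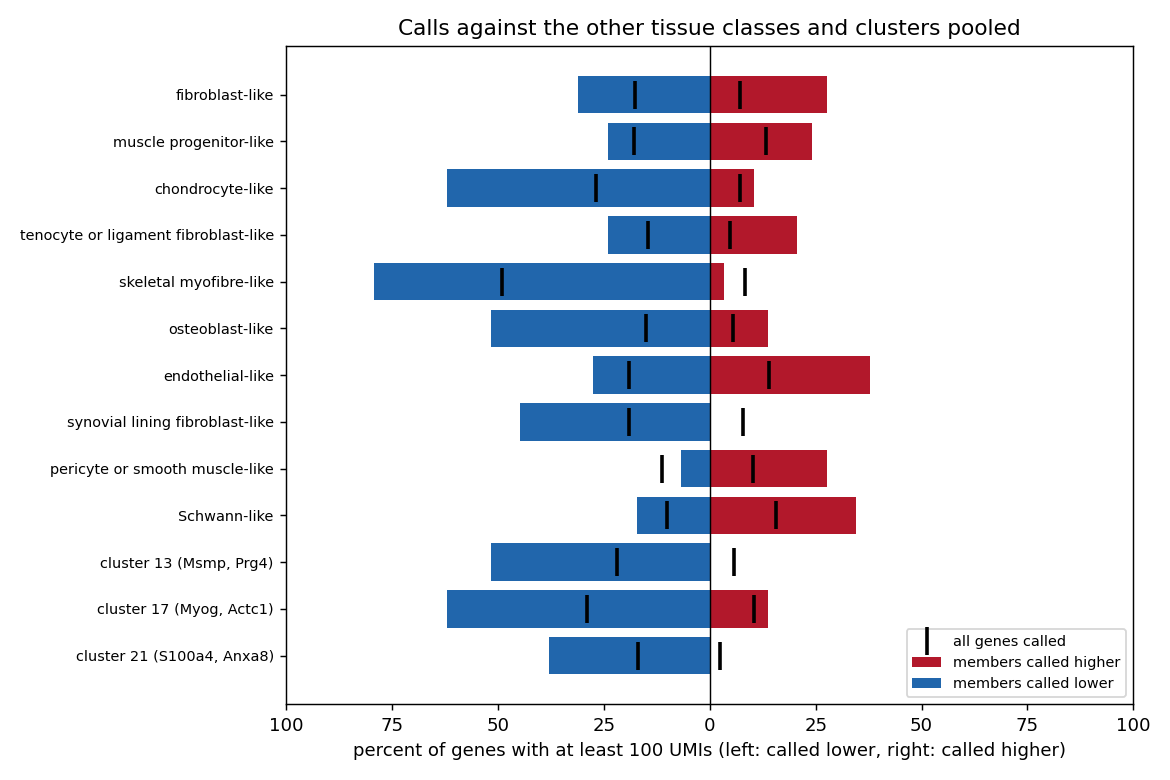
Percent of the 29 members called higher (red, to the right) or lower (blue, to the left) in each tissue class or cluster against the others pooled, with black ticks for all 15675 genes tested. The red bars pass their ticks furthest in endothelial-like (11 members), fibroblast-like (8), Schwann-like (10) and pericyte-like cells (8), and the blue bars are longest in skeletal myofibre-like (23), chondrocyte-like (18) and cluster 17 cells (18).

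Collagen IV comes first. Col4a1 and Col4a2 encode the alpha chains of the collagen IV trimer found in nearly all basement membranes. They lie head to head on chromosome 8 in mm10, Col4a1 (ENSMUSG00000031502) on the minus strand from 11198423 to 11312826 and Col4a2 (ENSMUSG00000031503) on the plus strand from 11312805 to 11449287, in the GENCODE M21 annotation. Their annotated start regions overlap by 22 bases, chr8:11312805-11312826, which are shown here from RefSeq promoter sequence of GRCm38.p6 because both genes start there. They are printed 5′ to 3′ on the plus strand, with the GC box, a motif bound by Sp family factors, in capitals.
Col4a1 and Col4a2 start sites: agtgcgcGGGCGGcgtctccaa
Windows around annotated starts (250 bases before to 50 after) were found for 22 of the 30 members, 27 windows in all. The GC box GGGCGG on either strand was in 17 of these 27 (63.0%), from 16 members, and in 35.7% of all 32851 windows. The Col4a1 and Col4a2 windows overlap and share the GC box printed above. CCAAT was in 10 of 27 (37.0%) and in 37.4% of all windows, and TATAAA in 0 of 27 and in 13.6%. None of the 3 motifs is contained in another, and a match is a description of the sequence only.

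Col4a1 was highest in endothelial-like cells, which line blood vessels, at 3852 CPM (3803 to 3900), set 1 at 3953 and set 2 at 3774. Pericyte-like cells, which wrap them, had 2223 CPM (2146 and 2318). Both classes stood above every other class in both sets. Synovial lining-like cells followed at 875 CPM (888 and 869) and Schwann-like cells at 839.8 CPM (887 and 809), and these 2 did not differ beyond counting error. Muscle progenitor-like cells had 692 CPM (611 and 734) and fibroblast-like cells 557 CPM (559 and 555). Against the other tissue classes pooled, Col4a1 was 9.49-fold higher in endothelial-like cells (9.35 to 9.63; 10.5-fold in set 1, 8.71-fold in set 2) and 4.18-fold higher in pericyte-like cells (4.02 to 4.34; 4.36-fold and 4.08-fold). Chondrocyte-like cells had 44.9 CPM (28.2 and 65.3), osteoblast-like cells 49.2 CPM (47.7 and 51.6) and cluster 13 37.9 CPM (41.9 and 33.1). These levels are near the 38.1 CPM of the blood classes, and that of cluster 13 was not above it, at a ratio of 0.997 (0.884 to 1.12). Although the level was lower there, fibroblast-like cells supplied 44.0% of Col4a1 UMIs, endothelial-like cells 27.9% and muscle progenitor-like cells 11.3%.

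Col4a2 followed Col4a1 closely. Endothelial-like cells had 1899 CPM (1842 in set 1, 1943 in set 2), pericyte-like cells 1237 CPM (1249 and 1222), synovial lining-like cells 555 CPM (553 and 556) and fibroblast-like cells 283 CPM (279 and 287). Across the 13 tissue classes and clusters the log2 levels of both genes had a Pearson r of 0.98 and a Spearman rho of 0.98, a description only, since every point holds cells of the same libraries. The ratio of Col4a1 to Col4a2 UMIs was nevertheless not constant. It was 2.03 in endothelial-like (1.98 to 2.07), 1.97 in fibroblast-like, 2.25 in muscle progenitor-like and 2.44 in cluster 17 cells, but 1.25 in tenocyte-like, 0.877 in chondrocyte-like (0.796 to 0.966; 0.742 in set 1, 0.970 in set 2) and 0.788 in cluster 13 cells. Osteoblast-like cells had a ratio of 1.31 (1.13 to 1.51; 1.47 and 1.12). UMIs are counted at the 3′ end and were not divided by length, and the ratio is not a ratio of protein chains.

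**Figure D3:**
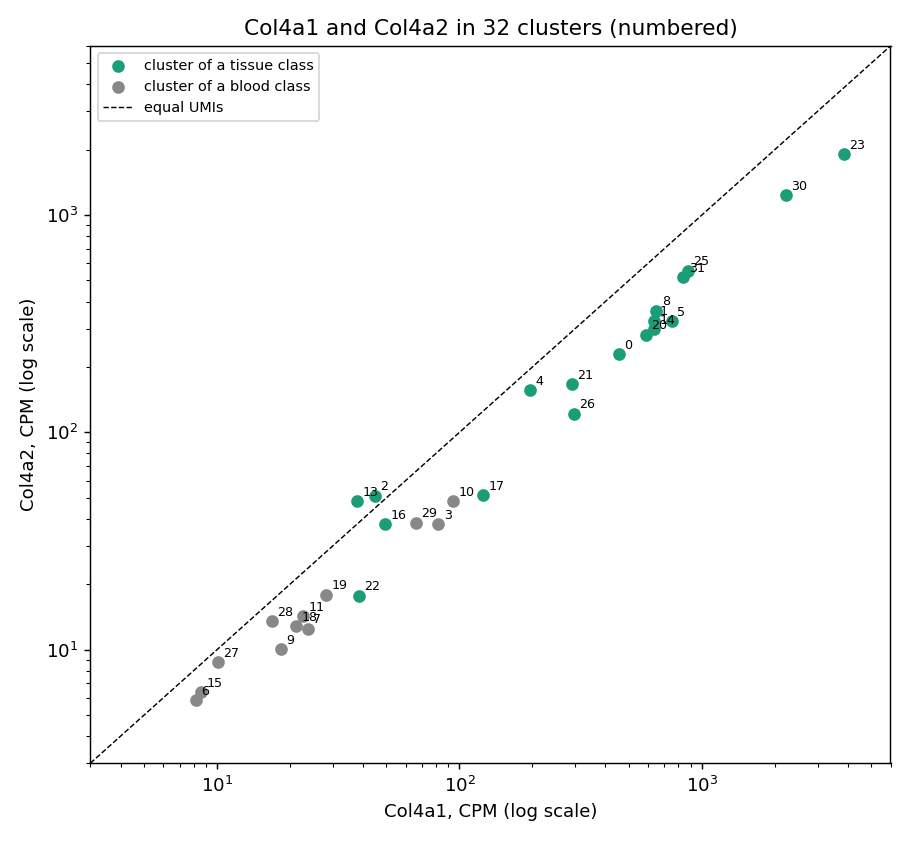
Level of Col4a1 (x axis, CPM, log scale) against Col4a2 (y axis, CPM, log scale) in each of the 32 clusters, numbered, with tissue clusters in green and blood clusters in grey. Points lie below the dashed line of equal UMIs except clusters 13 and 2, the latter being the chondrocyte-like class, and endothelial-like cluster 23 and pericyte-like cluster 30 are at the upper right.

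The other collagen IV chains were scarce. Col4a5, a chain of specialised basement membranes, had 2647 UMIs, and 64.6% came from fibroblast-like cells, at 24.9 CPM (22.3 in set 1, 27.4 in set 2), 2.53-fold above the pool (2.33 to 2.75). Pericyte-like cells had 27.6 CPM (21.8 and 34.8) and Schwann-like cells 27.3 CPM (30.6 and 25.1), from 32 and 25 UMIs. These 3 levels did not differ beyond counting error. Endothelial-like cells, so high in Col4a1, had only 4.14 CPM of Col4a5 (5.13 and 3.37). Col4a6 had 262 UMIs, with 3.69 CPM in chondrocyte-like cells (4.85 and 2.26), 2.92-fold above the pool, and 6.54 CPM from 6 UMIs in Schwann-like cells. Col4a5 and Col4a6 face each other on the X chromosome with 1309 bases between them, and their log2 levels had an r of 0.86 and a rho of 0.88 over the 13 tissue classes and clusters. Col4a4 had 963 UMIs and its level was 13.1 CPM in Schwann-like cells, from 12 UMIs, with intervals overlapping in 7 other classes. Col4a3 had 198 UMIs, 59.1% of them in fibroblast-like cells at 1.70 CPM. As a share of all collagen IV UMIs, Col4a5 was 12.1% in chondrocyte-like and 15.6% in cluster 13 cells, where Col4a1 and Col4a2 were low, against 0.0718% in endothelial-like cells. The share differed between sets, at 17.4% in set 1 and 7.98% in set 2 in chondrocyte-like cells, and 13.2% and 18.9% in cluster 13.

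Lama2, the alpha chain of muscle and nerve laminin, was highest in Schwann-like cells at 371 CPM (406 in set 1, 348 in set 2) and muscle progenitor-like cells at 345 CPM (324 and 356), which did not differ beyond counting error. Fibroblast-like cells had 256 CPM (226 and 285) and supplied 66.8% of Lama2 UMIs, with 18.6% from muscle progenitor-like cells. Endothelial-like cells had 27.8 CPM (26.0 and 29.2), chondrocyte-like cells 12.4 CPM (11.2 and 13.8) and osteoblast-like cells 11.9 CPM (10.5 and 14.1), and the last 2 were not above the 16.9 CPM of the blood classes. Lama2 was called higher in the first 3 of these classes, at 2.28-fold in Schwann-like (2.94-fold in set 1, 1.88-fold in set 2), 2.37-fold in muscle progenitor-like (2.56-fold and 2.17-fold) and 2.81-fold in fibroblast-like cells (3.29-fold and 2.56-fold). In set 2 alone the Schwann-like ratio is under 2.

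Lama4, the alpha chain of vessel and nerve laminins, was highest in Schwann-like cells at 328 CPM (248 in set 1, 380 in set 2) and endothelial-like cells at 310 CPM (320 and 303). Their intervals overlapped, and each led in 1 set. Fibroblast-like cells had 180.4 CPM (162 and 198) and supplied 63.9% of the UMIs, and pericyte-like cells had 174 CPM (129 and 230.0). The muscle line had little Lama4, at 26.0 CPM in muscle progenitor-like (28.4 and 24.7) and 9.31 CPM in cluster 17 cells (11.2 and 8.38), the latter not above the 9.68 CPM of the blood classes. Lama5, found in mature vessel walls and epithelium, was more restricted. Pericyte-like cells had 184 CPM (160 to 210; 229 in set 1, 128 in set 2), 24.7-fold above the pool (21.3 to 28.6; 36.1-fold and 15.1-fold). Cluster 17 had 49.1 CPM (52.1 and 47.7), endothelial-like cells 44.7 CPM (39.9 and 48.3) and muscle progenitor-like cells 26.5 CPM (29.3 and 25.1), and all 4 were called higher. With equal weight for each of the other tissue classes the log2 ratio fell from 1.93 to 0.06 in muscle progenitor-like and from 2.63 to 0.90 in endothelial-like cells, which ended both calls, and was 3.89 in pericyte-like cells. Fibroblast-like cells had 1.62 CPM (1.52 and 1.71). In mm10, Lama5 spans chromosome 2 from 180176373 to 180225859, minus strand. Beside these values, erythroid markers in pericyte-like cells summed to 46085 CPM in set 1 and 2217 CPM in set 2, with all 9 markers detected, and endothelial markers to 131 and 182 CPM with 8 of 9 detected. Their part in the pericyte-like results was not tested.

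Lama3, the alpha chain of epithelial anchoring laminin, had 968 UMIs and was highest in pericyte-like cells at 37.9 CPM (35.8 in set 1, 40.6 in set 2), followed by endothelial-like cells at 21.3 CPM (19.1 and 23.04) and tenocyte-like cells at 18.7 CPM (22.6 and 15.1). It was 7.23-fold, 4.42-fold and 4.50-fold above the pool in these classes. Tenocyte-like cells supplied its largest share, 27.8%. Fibroblast-like cells had 2.31 CPM (1.93 and 2.68). Of the alpha chain UMIs in a class, Lama2 was thus 85.3% in muscle progenitor-like, 74.4% in skeletal myofibre-like and 58.1% in fibroblast-like cells, but 6.88% in endothelial-like cells. The skeletal myofibre-like share rests on 289 alpha chain UMIs and was 86.5% in set 1 and 71.7% in set 2. Lama4 was 76.8% in endothelial-like, 77.2% in synovial lining-like, 76.6% in chondrocyte-like and 76.4% in osteoblast-like cells. Lama5 was 38.2% in pericyte-like cells, but 53.5% in set 1 and 23.3% in set 2, where Lama4 was 42.0%. In cluster 17 it was 26.9%.

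**Figure D4:**
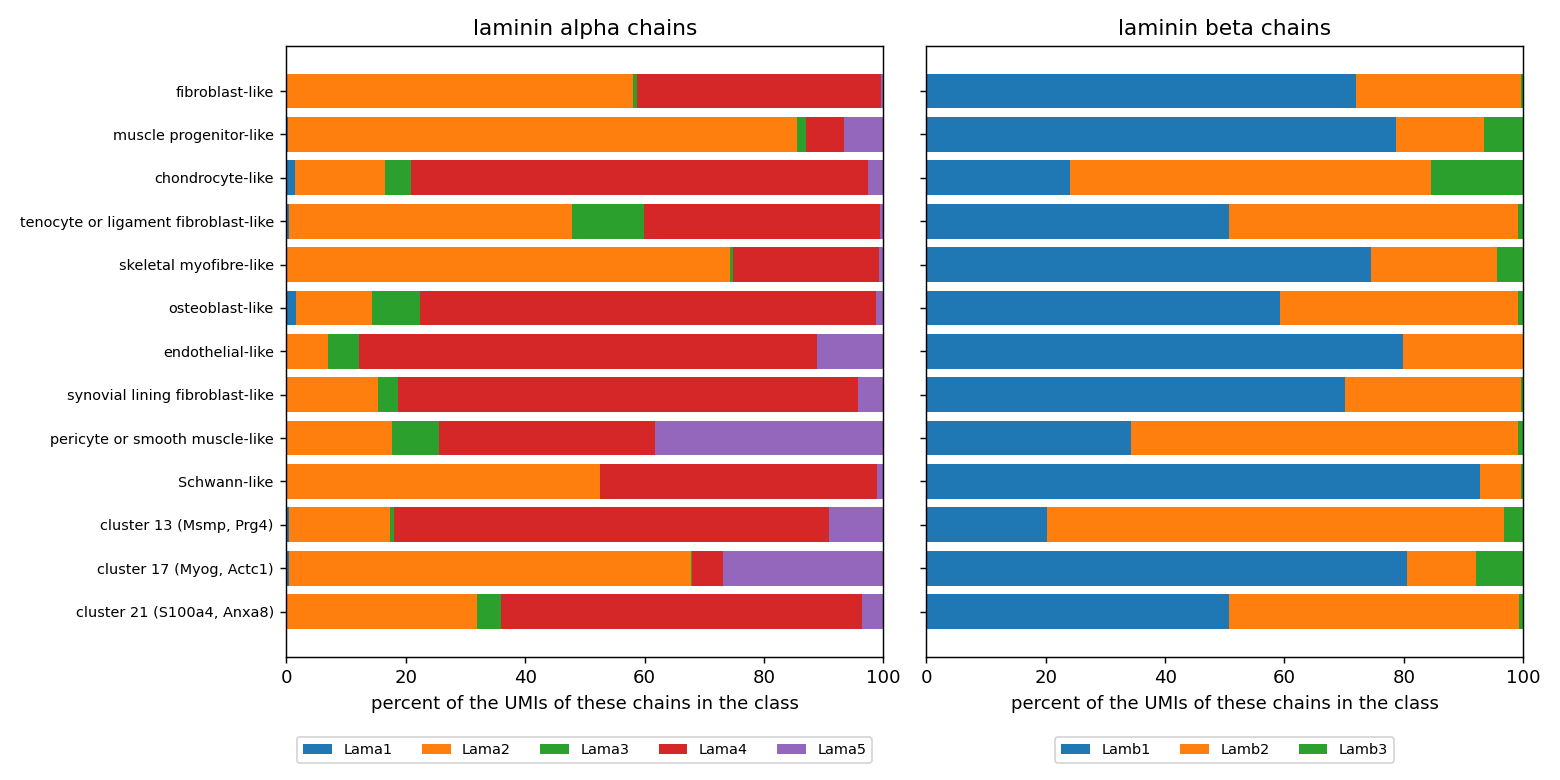
Share of laminin alpha chain UMIs (left) and beta chain UMIs (right) that each gene makes up in each tissue class or cluster, in percent of UMIs not divided by length. Orange Lama2 fills 85.3% of the muscle progenitor-like bar, red Lama4 76.8% of the endothelial-like bar and purple Lama5 38.2% of the pericyte-like bar (53.5% in set 1 and 23.3% in set 2, not drawn apart), while orange Lamb2 is 65.0% of the pericyte-like beta chain bar.

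Among beta chains, Lamb1, the most widely used, was highest in Schwann-like cells at 336 CPM (320 in set 1, 346 in set 2), then in endothelial-like cells at 234 CPM (239.7 and 230.1) and fibroblast-like cells at 219.7 CPM (198 and 241). Fibroblast-like cells supplied 68.6% of its UMIs. Lamb2, the beta chain of mature vessel and synaptic laminins, had another order, with pericyte-like cells first at 206 CPM (188 and 228), 3.55-fold above the pool (3.11 to 4.04), and fibroblast-like cells next at 84.4 CPM (75.8 and 92.6). Lamb2 was 65.0% of beta chain UMIs in pericyte-like, 60.5% in chondrocyte-like and 76.5% in cluster 13 cells, where Lamb1 was at or under the 11.4 CPM of the blood classes, but 6.93% in Schwann-like cells (8.34 CPM of Lamb2 in set 1, 35.9 CPM in set 2).

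Lamb3, the beta chain of epithelial anchoring laminin, went against the rest. Its highest level was in neutrophil-like cells at 34.6 CPM (31.98 to 37.4; 35.5 in set 1, 33.0 in set 2), with 19.1 CPM in B cell-like (19.7 and 18.6) and 17.04 CPM in granulocyte progenitor-like cells (14.7 and 20.1), but 0.318 CPM in erythroid-like and 0.0942 CPM in macrophage-like cells. The level of Lamb3 thus differed widely between blood classes, and its source there was not tested. The pooled level of 20.5 CPM joins the unlike neutrophil-like, B cell-like and erythroid-like levels. Of 13 tissue classes and clusters, 0 were above that pool. Tissue levels were lower, at 9.92 CPM in muscle progenitor-like (8.45 and 10.7) and 6.63 CPM in chondrocyte-like cells (6.30 and 7.05), 4.89-fold and 2.94-fold above the pool. Lamb3 spans 193207699 to 193343878 on the plus strand of chromosome 1. G0s2, a regulator of fat breakdown, lies inside that span on the opposite strand. It had 614 CPM in neutrophil-like, 123 CPM in granulocyte progenitor-like, 124 CPM in chondrocyte-like and 97.4 CPM in muscle progenitor-like cells, but 6.12 CPM in B cell-like cells. G0s2 also had 92.4 CPM in cluster 13, 45.8 CPM in Schwann-like and 33.0 CPM in fibroblast-like cells, where Lamb3 had 14, 1 and 92 UMIs. In erythroid-like cells G0s2 had 20.1 CPM. A link between the counts of these genes was not tested. No label or header says whether counting used strand, and whether this bears on the Lamb3 counts was not tested. G0s2 was chosen after the Lamb3 values had been seen.

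Lamc1, the common gamma chain, had 50008 UMIs in kept cells. It was highest in Schwann-like cells at 509 CPM (409 in set 1, 574 in set 2) and was at 438 CPM in fibroblast-like cells (391 and 484), which supplied 60.2% of its UMIs. The lowest tissue level was 79.6 CPM in skeletal myofibre-like cells (38.0 and 110.5). Some blood classes also had it, with 135 CPM in macrophage-like (154 and 117), 106 CPM in mast cell-like and 78.6 CPM in B cell-like cells (67.1 and 86.6). Lamc3 had 172 UMIs, with 4.22 CPM in muscle progenitor-like cells, nearly all of it in set 2 (0.412 in set 1, 6.20 in set 2), and 2.30 CPM in osteoblast-like cells (2.81 and 1.501), called 2.46-fold higher (5.13-fold and 1.17-fold).

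Nidogens link laminin to collagen IV. Nid1, on chromosome 13 (13437551 to 13512269, plus strand), was the member most closely tied to the fibroblast-like class. Its level there was 644 CPM (638 to 649.9; 572 in set 1, 713 in set 2), 6.13-fold above the pool (5.99 to 6.27; 5.96-fold and 6.29-fold). Fibroblast-like cells held 80.6% of all Nid1 UMIs, and tenocyte-like cells came next with 5.26%. Schwann-like cells had 321 CPM (273 and 352), and synovial lining-like, pericyte-like and endothelial-like cells had 254, 249.9 and 247 CPM, which did not differ beyond counting error. Muscle progenitor-like cells had 60.3 CPM (56.5 and 62.3) and cluster 17 had 20.99 CPM (4.61 and 29.0), which was below the blood classes, at a ratio of 0.745. Nid2 had another pattern, with Schwann-like cells at 205 CPM (186 and 217), endothelial-like cells at 132 CPM (139 and 126) and chondrocyte-like cells at 106 CPM (103.5 and 108). All 3 classes were called higher, at 3.75-fold, 2.51-fold and 2.14-fold. Fibroblast-like cells had 63.7 CPM (55.0 and 72.0). In chondrocyte-like cells the nidogens were thus called in opposite directions, since Nid1 was at 36.5 CPM there, 10.4-fold lower than in the pool.

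The proteoglycans were read by many cells. Hspg2 encodes perlecan, which is also a matrix component of cartilage. It was highest in endothelial-like cells at 669 CPM (681 in set 1, 660.4 in set 2), 2.39-fold above the pool (2.31 to 2.47), and next in Schwann-like cells at 587 CPM (473 and 660.3) and pericyte-like cells at 411 CPM (473 and 334). Chondrocyte-like cells had 346 CPM (321 and 377) and fibroblast-like cells 292 CPM (272 and 311). Only cluster 17 at 128 CPM and skeletal myofibre-like cells at 45.3 CPM were called lower. Agrn encodes agrin, which clusters acetylcholine receptors under motor nerve endings. Its levels in endothelial-like (78.1 CPM, 79.2 in set 1, 77.3 in set 2), Schwann-like (77.4 CPM, 89.0 and 70.0) and pericyte-like cells (72.4 CPM, 65.3 and 81.2) did not differ beyond counting error. They were 9.10-fold, 7.04-fold and 6.63-fold above the pool. Every other tissue class was at 11.4 CPM or less, and the blood classes were at 4.84 CPM.

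Col15a1 and Col18a1 encode the multiplexins, collagens at the outer face of basement membranes whose C-terminal fragments include endostatin. Col15a1 was highest in endothelial-like cells at 611 CPM (634 in set 1, 593.5 in set 2), 3.005-fold above the pool (4.11-fold and 2.38-fold), and in muscle progenitor-like cells at 433 CPM (364 and 468), 2.18-fold above it (2.30-fold and 1.97-fold). Fibroblast-like cells had 215 CPM (164 and 264) and supplied 42.0% of the UMIs. Synovial lining-like cells had only 35.7 CPM (13.3 and 47.3). Col18a1 was shared by pericyte-like (328 CPM, 358 and 292), Schwann-like (323 CPM, 356 and 301) and endothelial-like cells (278 CPM, 236 and 311). The first 2 did not differ beyond counting error, and the ratios were 4.28-fold, 4.19-fold and 3.97-fold. Fibroblast-like cells had 89.0 CPM (107 and 71.7). Col7a1, the collagen of anchoring fibrils under skin epithelium, had 227 UMIs and was highest in cluster 17 at 9.09 CPM (3.95 and 11.6), 8.34-fold above the pool (3.05-fold and 12.9-fold). Muscle progenitor-like cells had 2.60 CPM (4.33 and 1.71), 2.17-fold higher over both sets but 1.36-fold in set 2.

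The collagen VIII genes, known from the endothelial basement membrane of the cornea and from vessel walls, were highest here in tendon and bone cells. Col8a1, on the minus strand of chromosome 16 (57624258 to 57754737), had 368 CPM in tenocyte-like cells (448 in set 1, 296 in set 2), 9.04-fold above the pool (8.71 to 9.38; 8.56-fold and 9.86-fold). Osteoblast-like cells had 145 CPM (170.2 and 106) and pericyte-like cells 135 CPM (194 and 61.9). Endothelial-like cells had 18.9 CPM (10.99 and 25.01) and were called lower, 3.87-fold. Col8a2, which encodes the second chain, had 104 CPM in tenocyte-like cells (122 and 87.5), 8.25-fold above the pool, and 75.8 CPM in osteoblast-like cells (81.4 and 66.9), 4.26-fold. The pair parted in pericyte-like cells, where Col8a2 had 0 UMIs, which allows up to 2.59 CPM from 3 counts and makes it at least 8.20-fold lower than in the pool. Tenocyte-like and osteoblast-like cells together held most Col8a2 UMIs, at 44.4% and 19.5%. Fibroblast-like cells, though lower in level, held 652 Col8a2 UMIs against 658 in osteoblast-like cells. Of Col8a1 they held 2352 UMIs, against 1262 in osteoblast-like and 5309 in tenocyte-like cells.

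Nephronectin and the Fraser complex are basement membrane proteins that bind integrins or hold epithelium to mesenchyme. Npnt, nephronectin, was an osteoblast-like gene, at 117 CPM (110 to 124; 115 in set 1, 120.4 in set 2), 10.4-fold above the pool (9.59 to 11.2; 10.3-fold and 10.6-fold). In mm10, Npnt spans chromosome 3 from 132881745 to 132950291, minus strand. Tenocyte-like cells followed at 37.8 CPM (43.9 and 32.2), and endothelial-like cells had 31.3 CPM (20.5 and 39.6). Mast cell-like cells had 46.1 CPM (61.5 and 16.4) and granulocyte progenitor-like cells 33.2 CPM (54.5 and 6.14), so its blood cell levels came mostly from set 1. Fras1, an extracellular protein mutated in Fraser syndrome, was highest in cluster 17 at 44.6 CPM (55.3 and 39.3), 4.57-fold above the pool, then in skeletal myofibre-like cells at 30.8 CPM (50.6 and 16.02), tenocyte-like cells at 22.8 CPM (20.6 and 24.7) and muscle progenitor-like cells at 19.9 CPM (18.5 and 20.6). All 4 were called higher, but the skeletal myofibre-like ratio of 2.96 was 5.51 in set 1 and 1.40 in set 2. Frem1, its partner, was in Schwann-like (25.1 CPM, 25.03 and 25.1), muscle progenitor-like (20.3 CPM, 18.8 and 21.2) and tenocyte-like cells (15.3 CPM, 9.63 and 20.4), called 5.08-fold, 5.77-fold and 3.80-fold higher. Fibroblast-like cells, with 2.58 CPM, had little. Frem2 had 158 UMIs and at most 4.36 CPM, from 4 UMIs in Schwann-like cells, and its calls rest on as few as 4 UMIs.

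Pxdn encodes peroxidasin, the enzyme that forms the sulfilimine crosslinks of collagen IV. It was highest where collagen IV was, in endothelial-like cells, at 266 CPM (253 to 279; 278 in set 1, 256 in set 2), 4.55-fold above the pool (5.22-fold and 4.06-fold). Muscle progenitor-like cells had 95.1 CPM (82.9 and 101.4) and pericyte-like cells 93.9 CPM (98.0 and 88.9), which did not differ beyond counting error. Synovial lining-like cells, next after pericyte-like cells in Col4a1, had 15.1 CPM (12.4 and 16.5) and Schwann-like cells 30.5 CPM (27.8 and 32.3), both called lower. Over the 13 tissue classes and clusters the log2 levels of Pxdn and Col4a1 had an r of 0.70 and a rho of 0.63.

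Clusters within a class also differed, with both barcode sets pooled. Of the fibroblast-like clusters, cluster 8, led by Abca8a and Ebf2, had 563 CPM of Lama2, against 339 in cluster 1 (led by the stress genes Gadd45g, Hspa1a and Fos), 166 in cluster 0 (led by Csf2, Il1rl1 and Cxcl1) and 129.7 in cluster 14 (led by Saa3, Cxcl5 and Il6). Cluster 8 was likewise highest of the 4 for Lama4 (314 CPM), Lamb1 (355 CPM), Nid1 (830 CPM), Nid2 (122 CPM), Col15a1 (402 CPM), Col4a5 (38.5 CPM) and Fras1 (18.0 CPM). Lamb2 was highest in cluster 0 at 98.0 CPM and Col18a1 in cluster 14 at 113 CPM. In the muscle progenitor-like class, cluster 20, led by histone genes, had 116 CPM of Nid1, 52.2 CPM of Lama4 and 10.0 CPM of Lamc3, against 27.4, 10.4 and 0.784 CPM in cluster 5, while Lama2 was lower (254 against 399 CPM) and so was Lama5 (17.8 against 31.7 CPM). Of the skeletal myofibre-like clusters, cluster 26, led by the sarcomere genes Ttn, Neb and Trdn, had 84.2 CPM of Fras1 and 186 CPM of Lama2, against 3.36 and 7.67 CPM in cluster 22.

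**Figure D5:**
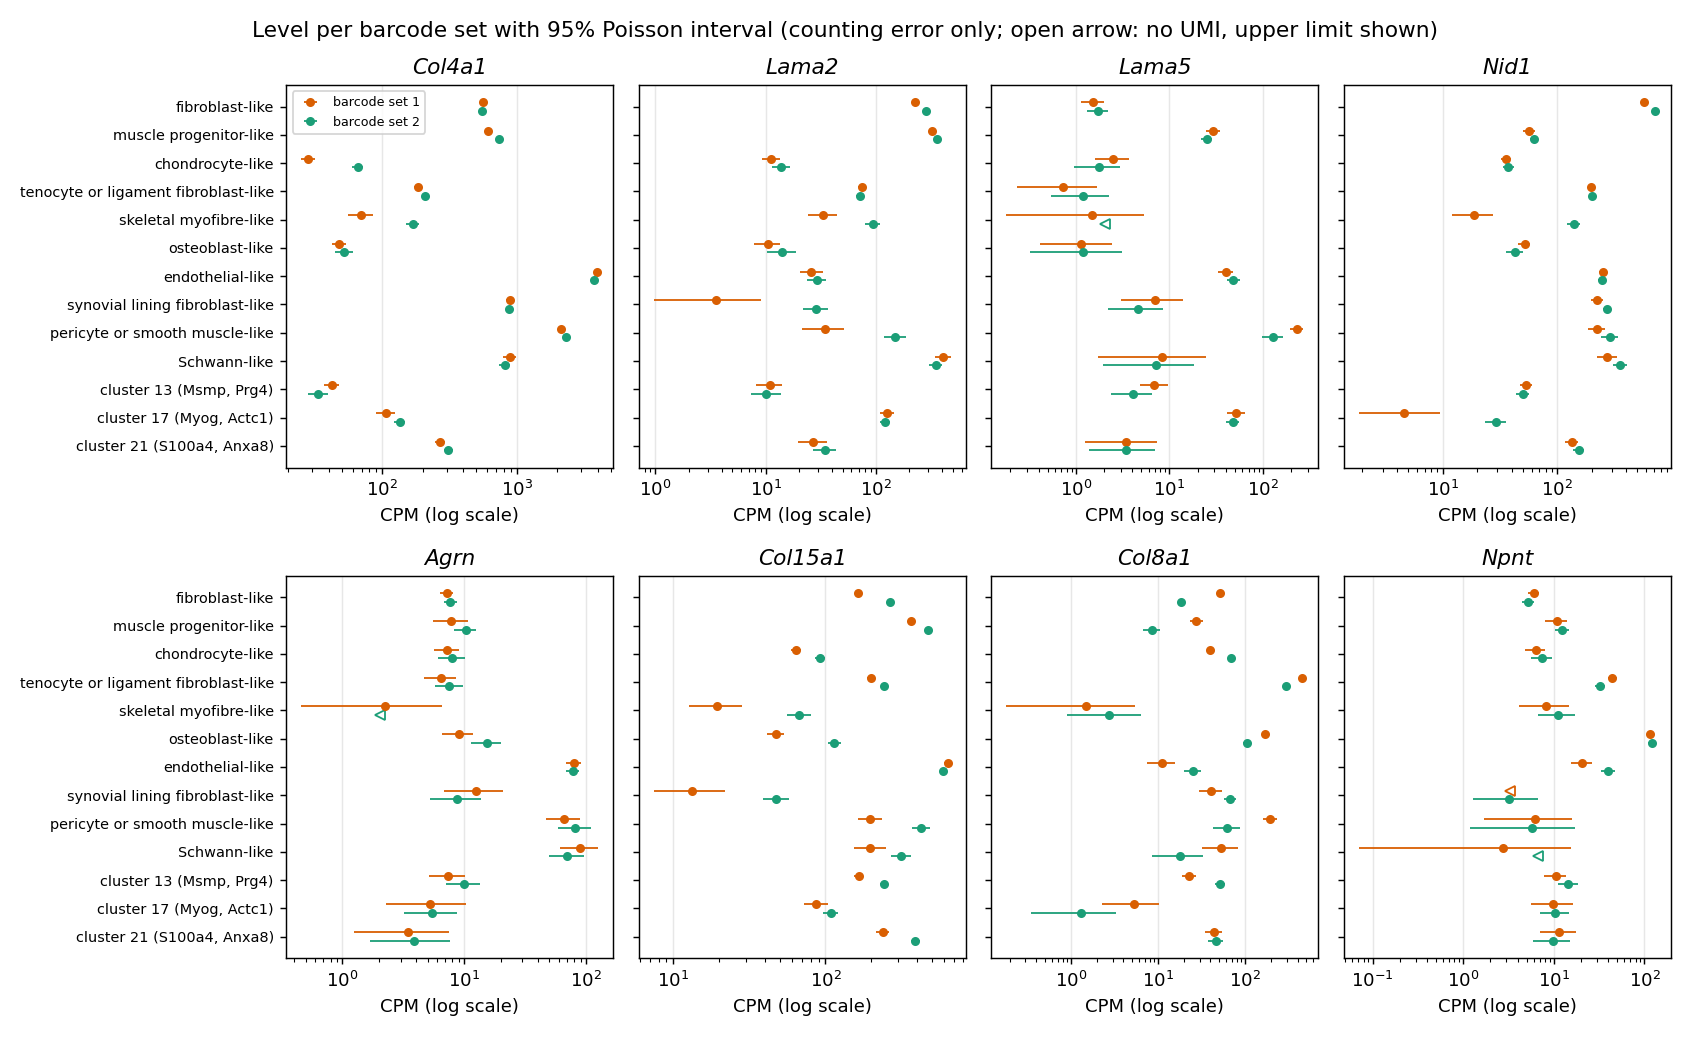
Level of 8 members in the 13 tissue classes and clusters (rows), in CPM on a log scale, for barcode set 1 (orange) and set 2 (green), with 95% Poisson intervals and an open arrow at the upper limit where a set had no UMI. The sets lie close together in Col4a1 of endothelial-like cells (3953 and 3774) and apart in Nid1 of skeletal myofibre-like cells (18.6 and 138.6), in Col8a1 of fibroblast-like cells (50.9 and 18.2) and in Col15a1 of osteoblast-like cells (47.1 and 114).

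Outside skeletal myofibre-like cells, at most 2 members of a class differed between the barcode sets in the same direction. Wherever 1 or 2 did, the share of members was above the share of all genes, though it rests on these small counts. A member was taken to differ within a class with at least 100 UMIs, a ratio of at least 2 and an interval without 1. In fibroblast-like cells 1 of 25 members was lower in set 2 (1.41% of all genes) and 0 were higher (1.03%): Col8a1, at 50.9 and 18.2 CPM, 2.79-fold (2.55 to 3.06). Col8a1 was also the 1 member of 21 lower in set 2 in muscle progenitor-like cells (27.6 and 8.55 CPM; 1.91% of all genes) and the 1 of 13 in pericyte-like cells (194 and 61.9 CPM; 3.07%). In endothelial-like cells it was the 1 of 18 higher in set 2 (10.99 and 25.01 CPM; 1.2%), and in cluster 13 it was higher together with Col8a2, 2 of 14 (2.11%). Its direction thus differed between classes. In chondrocyte-like cells 2 of 19 were higher in set 2 (3.2%), Col4a1 at 28.2 and 65.3 CPM and Col18a1 at 4.64 and 19.1 CPM. Col15a1 was higher in set 2 in osteoblast-like cells (47.1 and 114 CPM; 1 of 16, 1.72%), where Col18a1 was lower (20.0 and 5.10 CPM; 1 of 16, 2.1%), in synovial lining-like cells (13.3 and 47.3 CPM; 1 of 10, 2.13%) and in pericyte-like cells (198 and 425 CPM; 1 of 13, 3.62%). In osteoblast-like cells the 8 osteoblast markers summed to 4653 CPM in set 1 and 16737.5 CPM in set 2, and the 10 neutrophil markers to 129 and 1270.5 CPM, all detected. In chondrocyte-like cells the neutrophil markers summed to 2023 and 746 CPM and the 9 erythroid markers to 8043 and 2365 CPM, all detected. In pericyte-like cells 6 of 8 fibroblast markers had a UMI and summed to 112 and 348 CPM. The part of these in the differences between sets was not tested. Frem1 was the 1 of 21 higher in tenocyte-like cells (9.63 and 20.4 CPM; 1%). In the directions not named, 0 members passed: higher in muscle progenitor-like cells (1.67% of all genes), and lower in chondrocyte-like (3.94%), tenocyte-like (1.81%), endothelial-like (0.944%), synovial lining-like (0.973%) and cluster 13 cells (3.07%). Cluster 17 had 0 of 9 higher (1.46%) or lower (0.926%), and cluster 21 had 0 of 13 higher (1.24%) or lower (1.26%).

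Skeletal myofibre-like cells stood apart, since all 8 members with enough UMIs were higher in set 2, against 8.24% of all genes (1.15% were lower). Nid1 had 18.6 CPM in set 1 and 139 CPM in set 2, 7.45-fold (4.93 to 11.7), Lamb1 3.86-fold, Col15a1 3.45-fold and Col4a1 2.43-fold. Markers of other cells moved with them in these cells: the 8 fibroblast markers summed to 111 CPM in set 1 and 1148 CPM in set 2, with all 8 detected, and the 5 synovial lining markers to 53.6 and 1062 CPM, all 5 detected. Their part in the difference was not tested. In Schwann-like cells, where 0 of 11 members passed (6.02% of all genes higher and 4.44% lower), the 8 Schwann markers summed to 3591 CPM in set 1 and 18386 CPM in set 2 and the neutrophil markers to 1519 and 102 CPM. In endothelial-like cells pericyte markers summed to 1959 and 1818 CPM, with 9 of 9 detected, and tenocyte markers to 38.1 and 484 CPM. Whether these bear on the member levels was not tested.

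Of 11 basement membrane receptors, 6 were higher and 0 lower in endothelial-like cells (all genes 13.9% and 19%), 6 and 1 in pericyte-like (10.2% and 11.2%), 6 and 1 in Schwann-like (15.6% and 10.2%), 4 and 3 in muscle progenitor-like (13.3% and 17.8%) and 4 and 3 in cluster 17 cells (10.4% and 28.9%). They were 0 and 7 in fibroblast-like (7.06% and 17.7%), 1 and 7 in tenocyte-like (4.84% and 14.6%), 0 and 9 in osteoblast-like (5.37% and 15.1%) and 0 and 9 in skeletal myofibre-like cells (8.41% and 49.1%). The other counts were 2 and 5 in synovial lining-like cells (7.72% and 19.1%) and 1 and 4 in chondrocyte-like cells (7.24% and 26.8%). Cluster 13 had 1 and 5 (5.77% and 22%) and cluster 21 had 0 and 5 (2.46% and 16.9%). Itgb1, the common integrin beta chain, was highest in pericyte-like cells at 1056 CPM, Dag1, which encodes the laminin receptor dystroglycan, in Schwann-like cells at 597 CPM (545.6 CPM in muscle progenitor-like cells), and Itga1, a collagen-binding integrin chain, in pericyte-like cells at 618 CPM. Of 17 other basement membrane associated genes with enough UMIs (18 listed), fibroblast-like cells had 5 higher and 4 lower (all genes 7.06% and 17.7%) and tenocyte-like cells 4 and 3 (4.84% and 14.6%). Lower calls were more frequent in endothelial-like cells, 5 and 9 (13.9% and 19%), synovial lining-like cells, 4 and 11 (7.72% and 19.1%), Schwann-like cells, 3 and 10 (15.6% and 10.2%), and chondrocyte-like cells, 1 and 13 (7.24% and 26.8%). Skeletal myofibre-like cells had 1 and 14 (8.41% and 49.1%), cluster 17 had 1 and 14 (10.4% and 28.9%) and osteoblast-like cells 1 and 8 (5.37% and 15.1%). Pericyte-like cells had 2 and 8 (10.2% and 11.2%) and cluster 13 had 2 and 8 (5.77% and 22%). Muscle progenitor-like cells had 2 and 7 (13.3% and 17.8%) and cluster 21 had 1 and 5 (2.46% and 16.9%). Sparc, a collagen-binding glycoprotein, had 20018 CPM in chondrocyte-like cells, Fbln2 291 CPM in fibroblast-like and Matn2 339 CPM in Schwann-like cells. Of 14 genes of collagen folding, modification and export, chondrocyte-like cells had 4 higher and 0 lower (all genes 7.24% and 26.8%). They were 0 and 5 in endothelial-like (13.9% and 19%), 0 and 5 in muscle progenitor-like (13.3% and 17.8%), 1 and 5 in Schwann-like (15.6% and 10.2%) and 1 and 4 in pericyte-like cells (10.2% and 11.2%). They were 0 and 13 in skeletal myofibre-like cells (8.41% and 49.1%) and 0 and 13 in cluster 17 (10.4% and 28.9%). In the other 6 tissue classes and clusters 0 or 1 were higher (all genes 2.46% to 7.72%) and 0 or 1 lower (14.6% to 22%). Serpinh1, the collagen chaperone, had 1615 CPM in osteoblast-like cells, and P4hb and P4ha1, subunits of prolyl 4-hydroxylase, had 504 and 391 CPM in chondrocyte-like cells.

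The share of cells with a transcript was compared after thinning each cell to 2000 UMIs, leaving out shallower cells. Then 85.2% of 216 endothelial-like cells (79.7 to 89.6; 91.3% of 231 unthinned) had a Col4a1 UMI, against 1.92% of 4373 blood cells (4.44% of 4838 unthinned). Pericyte-like cells reached 94.6% of 93 (87.9 to 98.2), though their level was lower than that of endothelial-like cells. Nid1 was found in 62.6% of 3792 fibroblast-like cells (61.0 to 64.1; 94.0% unthinned) and in 1.28% of blood cells, and Lama2 in 46.0% of 1013 muscle progenitor-like (42.9 to 49.1; 83.9% unthinned) and 33.5% of fibroblast-like cells (77.7% unthinned). Col8a1 was found in 27.5% of 804 tenocyte-like cells (24.4 to 30.7; 54.1% unthinned; 34.4% in set 1, 22.6% in set 2), Lama5 in 23.7% of 93 pericyte-like cells (15.5 to 33.6; 52.0% unthinned) and Npnt in 18.8% of 356 osteoblast-like cells (14.9 to 23.3; 61.8% unthinned). The blood classes were at 0.412%, 0.114% and 0.183% for these genes. Col4a3, Frem2 and Lama1 had 5, 4 and 13 UMIs in their highest classes, too few to compare shares of cells.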

How the data were processed

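Values are raw UMI counts, deposited as 1 merged matrix of genes by barcodes that the authors made with Cell Ranger 7.0.0, per the labels' protocols. The submitters' processing notes name mm10. No label or header says whether introns or strand entered the counting. The matrix was treated as 1 pooled sample, and no column maps barcodes to a genotype.

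Cells were filtered as given in the report. Scrublet in scanpy 1.11.5, run per barcode set, called 2 of 7160 and 1 of 8014 cells, a rate at which it has not worked. Counts were scaled to 10000 per cell and logged. From 2000 variable genes and 30 principal components (rounded to 4 decimals), 15 exact neighbours and Leiden clustering (leidenalg 0.10.2, resolution 1, seed 1) gave the clusters, with 253 genes (members, related lists, all collagens, laminins and integrins, and technical genes) left out. A cluster took the name of the class with the highest mean marker log2 fold over all other cells (10 CPM added) if the median reached 1 and 3 or more markers, found in 10% or more of its cells, had a log2 fold of 1 or more. Shallow clusters stayed unnamed. A cluster with more markers of another class than of its own among its top 10 genes stayed unnamed. That condition was added after a first clustering had put cluster 13 (3.35% of set 1 and 3.29% of set 2) in the chondrocyte-like class.

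Class sums gave CPM with exact Poisson intervals, shares with Clopper-Pearson intervals, and ratios with exact conditional binomial intervals, all at 95% and covering counting error only (scipy 1.17.1). All 30 members are named. Of each related list the 3 genes with the most UMIs in tissue classes are named; 1 further gene that the rule named is not reported here. Members and lists were chosen with earlier results of these data known. The comparison of barcode sets, the gene pairs, the promoter motifs, the 8 members plotted by set and the thinned shares printed were chosen after the data were seen. Coordinates are from GENCODE M21, and promoter windows were found for 22 members. Alternatives were other cell filters, clustering settings, doublet treatments, pools, UMI minimums and depths of thinning, and each barcode set alone.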

Additional observations from a re-analysis of the deposited data

How the results depend on the processing

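Of the 165 calls in named tissue classes, 159 had a UMI in the class and a ratio to follow. Of those that could be compared, 150 of 158 were kept with at least 1000 genes and 2000 UMIs, 157 of 159 at resolution 2, 155 of 158 with seed 5, 157 of 157 with members used in clustering, 159 of 159 with a minimum of 30 UMIs, 136 of 144 at up to 5% mitochondrial UMIs, 144 of 157 with doublet calls kept, 146 of 157 with the top 5% of doublet scores removed, 102 of 123 with 15 principal components and 122 of 139 at resolution 0.5. Without set 1 136 of 154 were kept, without set 2 132 of 157, with equal weights 137 of 159 and against all other kept cells 132 of 159. Ratios changed direction at resolution 0.5 in Schwann-like cells, where the log2 ratio became -0.40 for Lama4, -0.0602 for Nid2 and 0.17 for Pxdn. The log2 ratio of Lamc3 in osteoblast-like cells became -0.15 with 15 components. That of Col18a1 in synovial lining-like cells became 0.21 with doublet calls kept and 0.15 with the top 5% of doublet scores removed. The cause was not tested.

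Members with the same highest class were 16 of 29 at up to 5% mitochondrial UMIs, 17 at resolution 0.5 and 12 with 15 components. Members higher were 2 in osteoblast-like cells with doublet calls kept, 5 in Schwann-like cells at resolution 0.5, 4 in fibroblast-like and 4 in muscle progenitor-like cells with equal weights, and 2 in synovial lining-like cells against all other kept cells. Members lower were 3 in Schwann-like and 12 in tenocyte-like cells at resolution 0.5, 5 in endothelial-like and 6 in osteoblast-like cells with 15 components, and 3 in Schwann-like, 5 in fibroblast-like and 3 in tenocyte-like cells against all other kept cells. Without set 1 or set 2, members lower ranged from 1 to 4 in pericyte-like, 3 to 4 in Schwann-like and 2 to 9 in tenocyte-like cells, and members higher from 0 to 1 in skeletal myofibre-like and in synovial lining-like cells. The shares of all genes called under these alternatives were not counted. Members with over 50% of UMIs from 1 class were 8, and 13 with the top 5% of doublet scores removed. That alternative, and naming without the top 10 condition, which kept 155 of 159 calls, were chosen after seeing the data.

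Classes not named were Schwann-like at up to 5% mitochondrial UMIs, osteoblast-like at resolution 0.5, and Schwann-like, pericyte-like and synovial lining-like with 15 components, so their results rest on how cells were clustered. No paired analysis was possible because the matrix is 1 pooled sample with no replicates. Depth limits Lama1, Col4a3, Col4a6, Col7a1, Lamc3 and Frem2 most.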
